A study of Homo sapiens with 23 samples.

Results

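The genes TFAP2A, TFAP2C, TP63, GRHL1, GRHL2, KLF4, KLF5, SOX2, EHF and ELF3 encode 10 transcription factors of squamous and other barrier epithelia. All 10 were found by symbol among the 61217 genes of each of the authors' 6 deposited tables. The set was chosen by a measured value, the high fold change of TFAP2A after miR-23b-3p in CaSki, so that value is given as a description with no test. RNA was measured by polyA sequencing in C-33A, a cervical squamous carcinoma line labelled HPV-negative, and in CaSki, a line labelled as metastatic, squamous and HPV-positive. Each line received 100 nM of a mimic, which was miR-124-3p or miR-23b-3p in some groups and miR-218-5p in others, or 100 nM of a negative control. The 23 samples form 8 groups, of which C-33A given miR-124-3p has 2 samples and each of the others has 3. A mimic is a synthetic double-stranded RNA that loads the named microRNA into the cell at a dose set by the experimenter. The tables hold comparisons of groups and no values per sample, so sequencing depth is unknown and levels below are group means. The titles carry replicate tags that recur across the groups of a line, of which C-33A given miR-124-3p lacks the first. The labels do not state whether a tag marks a separate culture, and p-values then measure the spread between the samples at hand, which could be technical. In C-33A that spread was pooled over genes, so a p-value there does not measure the spread of the single gene.

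Squamous epithelium renews from a basal layer, and the factors in this set act at successive points of that process. The p63 protein maintains basal progenitors and opens epithelial enhancers. AP-2 proteins bind many keratin and epidermal promoters together with p63. Grainyhead-like factors maintain epithelial junction genes, Krüppel-like factors divide between proliferation (KLF5) and terminal differentiation (KLF4), and the ETS factors EHF and ELF3 are expressed in differentiating epithelia. A microRNA lowers transcripts by pairing of its seed, bases 2 to 8, with complementary sites that lie mostly in 3′ UTRs.

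The sequences are shown because they state where the transfected microRNAs could pair with the members. The mature microRNAs are from RefSeq (GRCh38.p14), with the seed in capitals. The mature miR-23b-3p lies on chromosome 9 at 95085265-95085287 on the plus strand, and miR-218-5p has a copy on chromosome 4 and a copy on chromosome 5.
miR-23b-3p: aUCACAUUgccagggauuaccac
miR-218-5p: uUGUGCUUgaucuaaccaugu
Sites were searched on the sense strand of the 3′ UTR of the longest coding transcript of each gene in GENCODE 29 (GRCh38). The motif was AATGTGA for bases 2 to 8 of miR-23b-3p and AAGCACA for miR-218-5p (7mer-m8 sites), and a 6mer match to bases 2 to 7 was ATGTGA or AGCACA. The miR-124-3p mimic is named without sites. A match describes the letters of the UTR and is no evidence of binding.
KLF5, miR-23b-3p, chr13:73076216-73076222, plus strand: ccatcatttAATGTGAcagtgttcagt
KLF5, miR-23b-3p, chr13:73077078-73077084, plus strand: taaaatagtAATGTGAtgctgatgctg
EHF, miR-218-5p, chr11:34660602-34660608, plus strand: caatctgggAAGCACAggaataagtag
TP63, miR-23b-3p, 6mer, chr3:189894511-189894516, plus strand: gcctcaccATGTGAgctcttcctat
The capitals mark the match. KLF5 held 2 matches to bases 2 to 8 of the miR-23b-3p seed, and EHF held 1 match to those of miR-218-5p. Sites of 7mer or 8mer length, which include a 6mer match followed by an A, were found for miR-23b-3p in 2 of 10 members, KLF5 and GRHL2, against 26% of 19080 genes with a 3′ UTR. For miR-218-5p they were found in 1 of 10 members, EHF, against 18.8% of those genes. TP63 held 3 6mer matches for miR-23b-3p, GRHL1 held 2 for miR-218-5p, and TFAP2A held no match for either microRNA in this transcript.

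In the CaSki tables, the control libraries did not all look alike, and this bears on each CaSki value below. In the deposited miR-23b-3p table, genes at 0 in the control lost 1 denominator degree of freedom (2766 of 2766 genes) and genes at 0 in the mimic lost 2 (1372 of 1372), which is the pattern of 2 control and 3 mimic libraries. In the other CaSki tables both losses were 2, the pattern of 3 and 3 libraries. The labels name 3 CaSki control samples, and which of them the miR-23b-3p fit left out is not known. Group mean levels in CPM, reads per gene scaled to the library size, were recovered from the deposited fold change and average level, and the level of the left-out control library was then implied by the 3-library and 2-library control means.

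The 2 control libraries kept in the miR-23b-3p fit stood apart from the left-out control and from the CaSki mimic groups. A set of 141 genes was under 0.1 CPM in all 3 CaSki mimic groups and at 5 CPM or more in the 3-library control. The implied left-out control was under 1 CPM for 141 of these 141 genes, and 131 of them were under 0.1 CPM in all C-33A groups. RPS18, a ribosomal protein gene, had at most 0.0205 CPM in a mimic group, an implied 0.799 CPM in the left-out control and 902 CPM in the 2 other controls. It was chosen after its value was seen. TUBB, a beta tubulin gene chosen in the same way, had at most 0.013 CPM in a mimic group, an implied 0.584 CPM in the left-out control and 676 CPM in the 2 other controls. Both implied levels are small remainders of large control means. They do not show that the left-out control lay above the mimic groups for these genes. No gene showed the opposite pattern, and none of the 141 genes was a member. For miR-124-3p and miR-218-5p each deposited CaSki fold change below rests in part on these 2 libraries. For miR-23b-3p its control side rests on these 2 libraries alone. What set them apart was not tested, nor was whether their reads were processed in the same way as those of the other libraries.

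The members split the lines before any mimic was added. C-33A had SOX2, a pluripotency factor also found in foregut squamous epithelium, at 244 CPM in the control, and CaSki had it at 0.184 CPM. The order was reversed for most other members. EHF was at 0.0485 CPM in the C-33A control and 257 CPM in the CaSki control. GRHL2 was at 0.0112 CPM in the C-33A control and 147 CPM in the CaSki control. TP63 was at 0.0379 CPM in the C-33A control and 85.8 CPM in the CaSki control. In bulk RNA of this kind, fewer cells that express a gene and less RNA per cell cannot be told apart. TFAP2A was at 0.198 CPM in the C-33A control and 54.4 CPM in the CaSki control. KLF5 was expressed in both, at 19.1 CPM in C-33A and 96.2 CPM in CaSki. GRHL1 was the member closest between the lines, at 3.65 CPM in C-33A and 3.02 CPM in CaSki. On the log2 scale the C-33A over CaSki ratio of control levels ran from -13.68 for GRHL2 to 10.37 for SOX2. The tables of the lines were normalised separately, levels under 0.1 CPM are near the floor of the tables, and this ratio has no test.

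Divided by exon length, the order of control levels in C-33A began with SOX2 at 97.0 CPM per kb and KLF5 at 4.90 CPM per kb. TFAP2C at 0.463 and GRHL1 at 0.459 CPM per kb followed, and lay next to each other. The other 6 members in C-33A were at 0.204 CPM per kb or below. In CaSki the order began with EHF at 58.7 CPM per kb, followed by KLF5 at 24.7 and GRHL2 at 24.3 CPM per kb. TP63 at 11.5, TFAP2C at 10.0, TFAP2A at 6.57, ELF3 at 5.66 and KLF4 at 4.46 CPM per kb formed the middle, and GRHL1 at 0.38 and SOX2 at 0.0731 CPM per kb came last. Without values per sample, neighbours in these orders were not tested.

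The squamous markers TP63, KRT5, KRT14, DSG3 and PKP1 were all under 0.1 CPM in the C-33A control, with a summed level of 0.189 CPM, and all at 1 CPM or more in the CaSki control, with a sum of 4730 CPM. The C-33A RNA thus lacked the defining markers of the cell type that its label names, and 4 of the 10 members reached an average log2 CPM of 0 there, against 9 in CaSki. Those 4 are TFAP2C, GRHL1, KLF5 and SOX2. Summed markers of simple epithelium (KRT8, KRT18, KRT19, EPCAM, CDH1) came to 3.72 CPM in the C-33A control and 2243 CPM in the CaSki control.

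**Figure D1:**
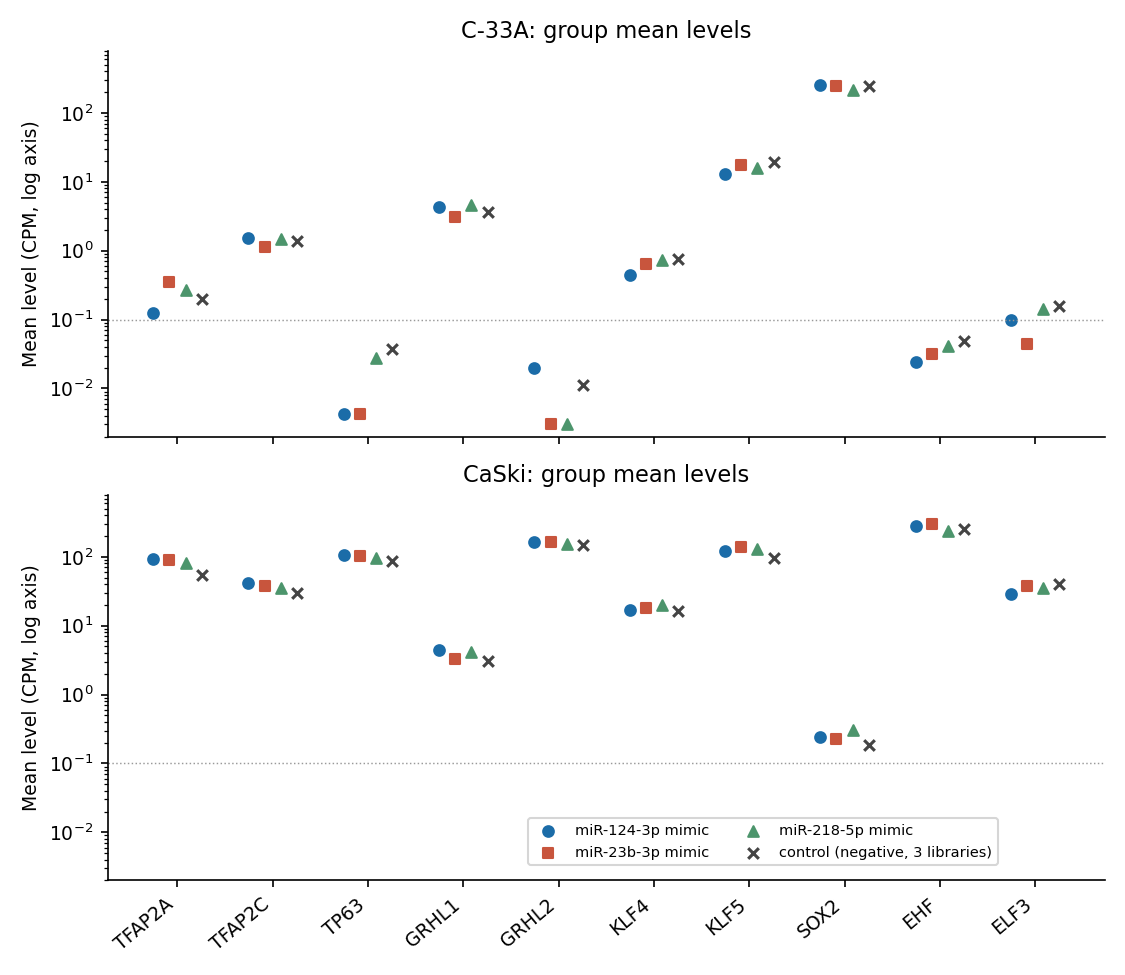
Group mean level of each of the 10 genes in CPM on a log axis, in C-33A (top) and CaSki (bottom), for the 3 mimic groups and the 3-library negative control; the dotted line marks 0.1 CPM. SOX2 lies near 244 CPM in the C-33A control and near 0.184 CPM in the CaSki control, while TP63, GRHL2 and EHF lie under 0.1 CPM in every C-33A group.

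In C-33A no member was called at a deposited FDR under 0.05 (edgeR) after any mimic. The share of all genes called was 0.162% after miR-124-3p, 0.0474% after miR-23b-3p and 0.0751% after miR-218-5p, so a count of 0 of 10 is near the background. KLF5 after miR-124-3p was the only member with an unadjusted p under 0.05 in C-33A, where 3.07% of all genes had one, and no member did after miR-23b-3p (1.97% of all genes) or miR-218-5p (2.27%). KLF5, which drives proliferation of basal epithelial cells, had 12.8 CPM with the miR-124-3p mimic and 19.2 CPM in the control. In the authors' deposited table its log2 fold change was -0.58 (recovered SE 0.226, unadjusted p = 0.00953, adjusted p = 0.995, edgeR). The other mimic groups of C-33A had 17.3 CPM with miR-23b-3p and 15.8 CPM with miR-218-5p, both also below the control. With miR-23b-3p, for which the KLF5 3′ UTR holds the matches shown above, the log2 fold change in the authors' deposited table was -0.13 (recovered SE 0.203).

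SOX2, the member with the highest level in C-33A, had 255 CPM with miR-124-3p, 248 CPM with miR-23b-3p and 219 CPM with miR-218-5p, against 244 CPM in the control. Its log2 fold changes in the authors' deposited tables were 0.06, 0.04 and -0.16 in that order of mimics, with recovered SEs of 0.162 to 0.167. Each of these differences is under 1 SE. GRHL1, which in mice maintains desmosomal genes, had 4.35, 3.06 and 4.60 CPM with miR-124-3p, with miR-23b-3p and with miR-218-5p, against 3.65 CPM in the control. TFAP2C, the AP-2 protein of trophoblast and early epidermis, had 1.55, 1.12 and 1.47 CPM in the same order, against 1.39 CPM in the control. For both genes the mimic groups lay on both sides of the control. The log2 fold change farthest from 0 was that of GRHL1 after miR-218-5p, at 0.33 in the authors' deposited table (recovered SE 0.266).

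The remaining 6 members had under 1 CPM in every C-33A group. KLF4, a factor of suprabasal differentiation, had 0.436, 0.635 and 0.722 CPM with miR-124-3p, with miR-23b-3p and with miR-218-5p, against 0.747 CPM in the control. TFAP2A had 0.125, 0.346 and 0.268 CPM in that order, against 0.198 CPM in the control, and its log2 fold changes in the authors' deposited tables (-0.67, 0.83 and 0.43) had recovered SEs of 0.744 to 1.03. At these levels a change of TFAP2A in C-33A was not detectable. ELF3 had at most 0.141 CPM with a mimic, against 0.155 CPM in the control, and TP63, GRHL2 and EHF stayed under 0.1 CPM in every group.

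In CaSki most members were higher in the mimic groups than in the 3-library control. After miR-124-3p 9 of 10 members had a positive log2 fold change and after miR-218-5p 8 of 10, with medians of 0.31 and 0.26 over the 9 members at an average log2 CPM of 0 or above, beside -0.01 and 0.01 over all such genes. The CaSki tables share control libraries, so these directions do not add to each other. TFAP2A, chosen on its value against 2 of these libraries, is counted here too. The choice of the set thus reaches these counts and medians, and those over the 2 libraries below, so they are a description. Over the left-out control library alone, 6 of these 9 members were higher with miR-124-3p and 5 of 9 with miR-218-5p, and the medians were 0.08 and 0.01, beside 0.02 and 0.03 over all 15003 such genes. Over the 2 other control libraries 8 of 9 were higher with miR-124-3p and 7 of 9 with miR-218-5p, with medians of 0.45 and 0.32. The medians were larger over the 2 libraries that stood apart than over the left-out library, which is 1 library with no error. What this difference comes from was not tested. No member was called after miR-124-3p, where 0.305% of all genes were, and none after miR-218-5p, where 0.0245% were (deposited FDR, edgeR). At an unadjusted p under 0.05, 4 of 10 members passed after miR-124-3p, against 4.71% of all genes and 20.8% of genes at an average log2 CPM of 4 or above, and 0 of 10 after miR-218-5p, against 2.54% of all genes and 9.77% of such genes. After miR-23b-3p 1 member, TFAP2A, was called, where 2.4% of all genes were called (1.41% higher, 0.995% lower). Since that contrast chose the set, nothing is read from this count, nor from the 9 of 10 positive fold changes and their median of 0.25.

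**Figure D2:**
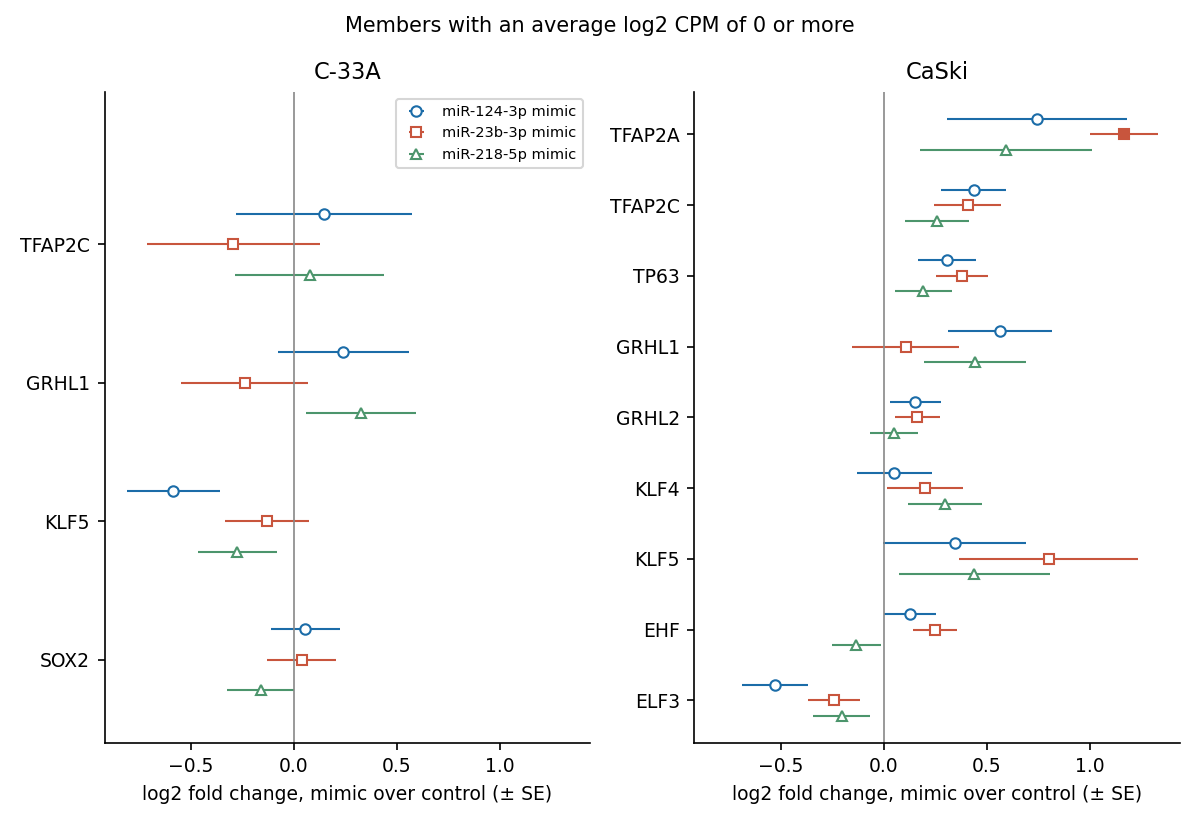
Deposited log2 fold change of mimic over control, with the recovered SE as bars, for members at an average log2 CPM of 0 or above (4 in C-33A, 9 in CaSki); filled symbols mark a deposited FDR under 0.05. TFAP2A after miR-23b-3p, at 1.16, is the filled symbol and is the value on which the set was chosen; ELF3 lies below 0 after each mimic in CaSki.

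Both AP-2 genes had higher means with each CaSki mimic than in the control. TFAP2A encodes AP-2 alpha and lies on chromosome 6 at 10393186-10419659 on the minus strand of GRCh38. It had 91.5 CPM with miR-124-3p, 90.2 CPM with miR-23b-3p and 81.6 CPM with miR-218-5p, against 54.4 CPM in the 3-library control and 40.2 CPM in the 2-library control of the miR-23b-3p fit. The mimic groups thus lay close together, with the level of miR-23b-3p between the others. In the authors' deposited table the log2 fold change was 1.16 after miR-23b-3p, with an FDR of 8.46e-08 (edgeR) that is given as the value that chose the gene. In the authors' deposited tables it was 0.74 after miR-124-3p (recovered SE 0.434, p = 0.0867, adjusted p = 1.00, edgeR) and 0.59 after miR-218-5p (recovered SE 0.418, p = 0.156, adjusted p = 1.00, edgeR). Against the 3-library control the miR-23b-3p value was 0.73 in place of 1.16.

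The spread behind these tests of TFAP2A differed between the fits. Its denominator degrees of freedom were 4.44 in the miR-124-3p fit and 4.39 in the miR-218-5p fit, where 4.6% and 5.08% of genes at an average log2 CPM of 4 or above had under 5. In the miR-23b-3p fit they were 38.18, the commonest value of that table. KLF5 was under 5 in all 3 CaSki fits, at 4.66, 3.41 and 4.52 for miR-124-3p, for miR-23b-3p and for miR-218-5p.

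TFAP2C had 40.9, 37.9 and 35.8 CPM with miR-124-3p, with miR-23b-3p and with miR-218-5p, against 30.1 CPM in the 3-library control. Its log2 fold changes in the authors' deposited tables were 0.44 (recovered SE 0.159, adjusted p = 0.472, edgeR), 0.41 (recovered SE 0.162, adjusted p = 0.218, edgeR) and 0.26 (recovered SE 0.156, adjusted p = 1.00, edgeR) in that order. None passed the threshold.

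TP63, the basal cell regulator, had 107, 102 and 97.5 CPM with miR-124-3p, with miR-23b-3p and with miR-218-5p, against 85.8 CPM in the 3-library control and 78.0 CPM in the 2-library control. It lay just outside the threshold after miR-23b-3p, with a log2 fold change of 0.38 in the authors' deposited table (recovered SE 0.126, adjusted p = 0.0811, edgeR), which became 0.24 against the 3-library control. TFAP2A was the only member inside it.

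The grainyhead-like genes differed from each other. GRHL1 had 4.50, 3.28 and 4.09 CPM with miR-124-3p, with miR-23b-3p and with miR-218-5p, against 3.02 CPM in the 3-library control, and its log2 fold change after miR-124-3p was 0.57 in the authors' deposited table (recovered SE 0.253, p = 0.0253, adjusted p = 0.865, edgeR). GRHL2, a regulator of E-cadherin and claudin genes, had 165, 162 and 152 CPM in the same order, against 147 CPM in the control, with log2 fold changes of 0.05 to 0.16 in the authors' deposited tables. The GRHL2 means moved little, at an SE of 0.108 to 0.124.

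KLF5 had 123, 139 and 130 CPM with miR-124-3p, with miR-23b-3p and with miR-218-5p, against 96.2 CPM in the 3-library control and 79.9 CPM in the 2-library control. Its log2 fold change after miR-23b-3p was 0.80 in the authors' deposited table (recovered SE 0.434, adjusted p = 0.583, edgeR) and 0.53 against the 3-library control. This is the member with 2 seed matches for miR-23b-3p. Its mean with that mimic was above both of these controls, and its log2 ratio over the left-out library was 0.11. Whether the matches act in these cells was not tested. KLF4 had 17.02, 18.0 and 19.9 CPM in the same order of mimics, against 16.3 CPM in the 3-library control, and its log2 fold change farthest from 0 was 0.30 after miR-218-5p in the authors' deposited table (recovered SE 0.181).

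EHF, an epithelial ETS factor, had 282, 297 and 233 CPM with miR-124-3p, with miR-23b-3p and with miR-218-5p, against 257 CPM in the 3-library control. The group below the control was miR-218-5p, for which the EHF 3′ UTR holds the 7mer-m8 match shown above, at a log2 fold change of -0.13 in the authors' deposited table (recovered SE 0.121, p = 0.277, edgeR). ELF3, the other ETS member, was the gene that was lower with every CaSki mimic, at 28.4, 37.3 and 35.1 CPM in the same order, against 40.7 CPM in the 3-library control. Its log2 fold change after miR-124-3p was -0.53 in the authors' deposited table (recovered SE 0.160, p = 0.000962, adjusted p = 0.170, edgeR). SOX2 was near its floor in CaSki, with 0.224 to 0.308 CPM in the mimic groups, against 0.184 CPM in the control.

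Set against the left-out control library alone, the CaSki levels of TFAP2A, KLF5 and TP63 with the mimics were close to the control. TFAP2A had 91.5, 90.2 and 81.6 CPM with miR-124-3p, with miR-23b-3p and with miR-218-5p, against an implied 82.7 CPM in that library, which gives log2 ratios of 0.15, 0.13 and -0.02. Against the 2 libraries of the miR-23b-3p fit the ratios were 1.19, 1.16 and 1.02. KLF5 was at an implied 129 CPM in the left-out library, with ratios of -0.07, 0.11 and 0.01 in that order of mimics, where the 2 other libraries gave 0.62, 0.80 and 0.70. TP63 was at an implied 101 CPM, with ratios of 0.08, 0.00 and -0.06. These ratios rest on 1 control library and have no test.

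**Figure D3:**
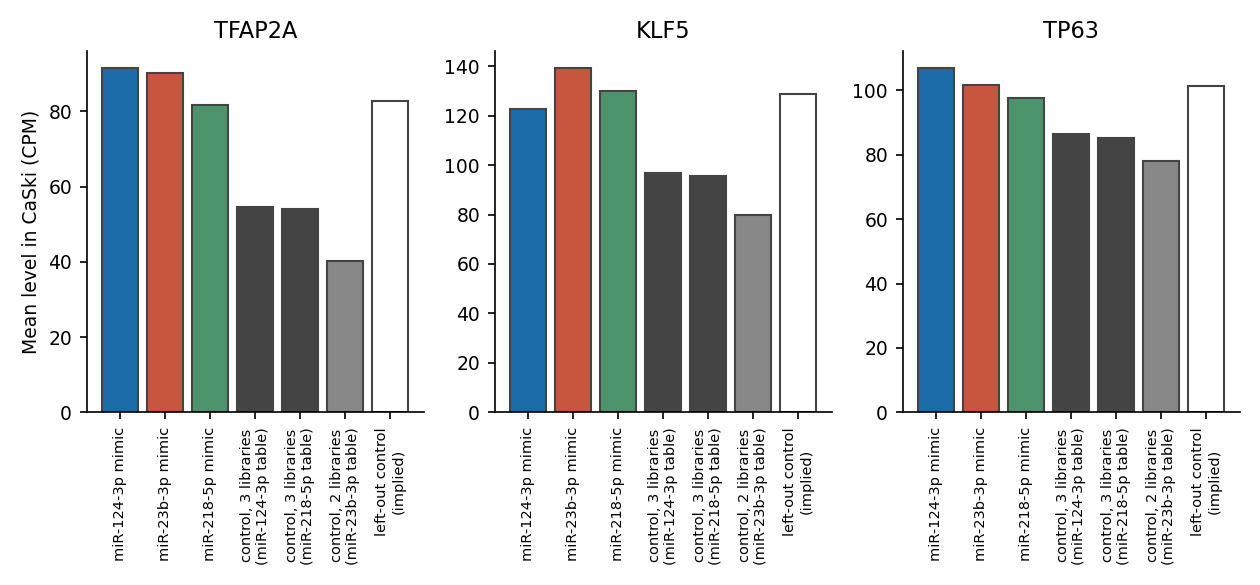
Group mean level in CaSki, in CPM from 0, of TFAP2A, KLF5 and TP63: the 3 mimic groups, the 3-library control as recovered from 2 tables, the 2-library control of the miR-23b-3p table, and the implied level of the control library that this fit left out (open bar). For TFAP2A the open bar, at 82.7 CPM, stands among the mimic groups and the 2-library control stands at 40.2 CPM.

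Apart from SOX2, at an implied 0.143 CPM, the members farthest from the left-out library were GRHL1 and TFAP2C. GRHL1 was at an implied 2.99 CPM in the left-out library, with log2 ratios of 0.59, 0.13 and 0.45 for miR-124-3p, for miR-23b-3p and for miR-218-5p, close to 0.57, 0.11 and 0.43 against the 2 other libraries. TFAP2C had ratios of 0.31, 0.20 and 0.11 in that order. ELF3 was at an implied 34.1 CPM, with ratios of -0.26 after miR-124-3p, 0.13 after miR-23b-3p and 0.04 after miR-218-5p, so its lower level after miR-124-3p is the ratio that kept its sign. EHF after miR-218-5p had a ratio of -0.22.

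Genes at large, with the members included, showed the same difference between controls. Over 644 genes at an average log2 CPM of 4 or above that were called higher after miR-23b-3p, the median log2 ratio of the miR-23b-3p mimic was 0.09 over the left-out library and 0.60 over the 2 other libraries. Over 540 such genes called lower it was 0.01 over the left-out library and -0.48 over the 2 others. These genes were called against the 2 libraries, so the medians are a description. Over all 7909 genes of that level, regardless of calls, the range from the 5th to the 95th percentile for the miR-23b-3p mimic was -0.20 to 0.24 over the left-out library and -0.50 to 0.63 over the 2 others. For miR-124-3p it was -0.33 to 0.30 over the left-out library and -0.57 to 0.63 over the 2 others. For miR-218-5p it was -0.27 to 0.28 over the left-out library and -0.43 to 0.56 over the 2 others.

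**Figure D4:**
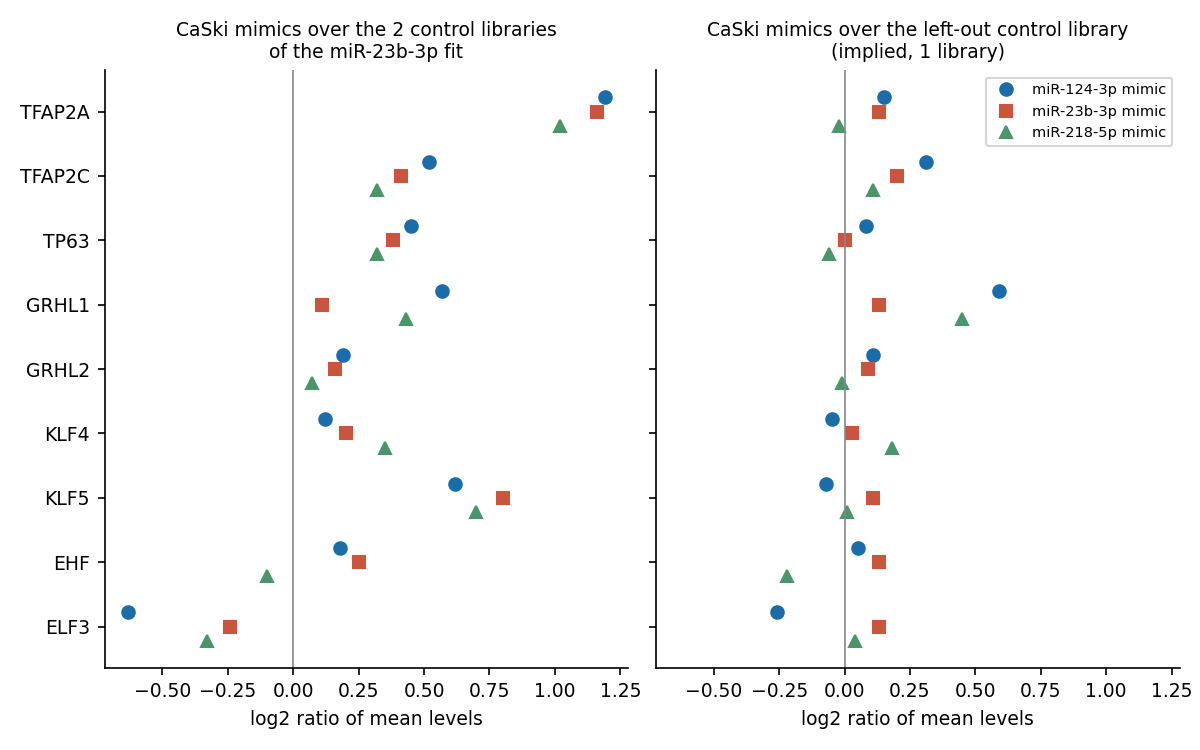
Log2 ratio of the mean level in each CaSki mimic group over the 2 control libraries of the miR-23b-3p fit (left) and over the implied left-out control library (right), for the 9 members other than SOX2. TFAP2A lies at 1.02 to 1.19 on the left and at -0.02 to 0.15 on the right, while GRHL1 lies at about the same place in both panels.

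The lines were compared for the same microRNA by the difference of the deposited log2 fold changes, C-33A minus CaSki, over genes at an average log2 CPM of 0 or above in both lines. The members TFAP2C, GRHL1 and KLF5 could be tested for each mimic, and none passed a two-sided normal test with Benjamini-Hochberg adjustment over all genes tested. The share of genes that passed was 0% for miR-124-3p, 1.7% for miR-23b-3p and 0% for miR-218-5p. The largest differences were those of KLF5, at -0.93 for miR-124-3p (95% interval -1.74 to -0.12, adjusted p = 1.00, normal test over all genes, edgeR values) and -0.93 for miR-23b-3p (95% interval -1.87 to 0.01, adjusted p = 0.325, same test). The mean of KLF5 was below the control with all 3 mimics in C-33A and above the deposited control in CaSki, where its ratios over the left-out library were -0.07 to 0.11. For TFAP2C after miR-23b-3p the difference was -0.70 (95% interval -1.58 to 0.18), and for GRHL1 it was -0.35 (-1.13 to 0.44). Intervals of this width do not show that the lines responded alike.

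Mimics of the same line were compared by the difference of their log2 fold changes. The SEs were summed as if the comparisons were independent, although they share control libraries, and in CaSki the pairs with miR-23b-3p keep the difference between the 2-library and the 3-library control. For TFAP2A, for example, the difference between miR-23b-3p and miR-124-3p was 0.42. No member passed in any of 6 pairs, where 0.053% to 0.557% of genes did, and TFAP2A was not tested in the pairs with miR-23b-3p in CaSki. The smallest p was that of EHF in CaSki, miR-23b-3p minus miR-218-5p, at a difference of 0.38 (SE 0.16, adjusted p = 1.00, normal test over all genes, edgeR values; the p was 0.0177 before adjustment). EHF had 297 CPM with miR-23b-3p and 233 CPM with miR-218-5p, a log2 ratio of 0.35 between groups that uses no control. The same direct ratio for TFAP2A in CaSki was -0.02 for miR-23b-3p over miR-124-3p and 0.14 for miR-23b-3p over miR-218-5p. ELF3 had a ratio of 0.39 for miR-23b-3p over miR-124-3p, and GRHL1 of -0.46.

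Calls among other genes of the epithelial program are set beside the share of genes at an average log2 CPM of 0 or above that were called. In CaSki this share was 1.2% after miR-124-3p, 9.09% after miR-23b-3p and 0.0978% after miR-218-5p. In C-33A it was 0.634%, 0.191% and 0.299% in the same order of mimics. Of 28 other epithelial transcription factors, 22 reached that level in CaSki, and 2 of the 28 were called after miR-124-3p and 3 after miR-23b-3p. CEBPB, a C/EBP factor of suprabasal keratinocytes, was the 1 of them called in C-33A and rose after miR-23b-3p, to 60.1 CPM with the mimic, against 31.7 CPM in the control (log2 0.92 in the authors' deposited table, adjusted p = 0.00133, edgeR). After miR-124-3p in CaSki, RARG, a retinoic acid receptor, fell to 41.2 CPM, against 76.6 CPM in the control (log2 -0.90 in the authors' deposited table, adjusted p = 0.000317, edgeR), and against the left-out library its ratio was -0.62. CEBPA also fell there (log2 -0.79 in the authors' deposited table, adjusted p = 0.0438, edgeR), with a ratio of -0.37 against the left-out library. After miR-23b-3p in CaSki, NFIB, SOX9 and KLF3 rose, at log2 0.77, 0.72 and 0.45 in the authors' deposited table. Against the left-out library these 3 were at 0.21, 0.04 and -0.08. None of the 28 was called in the other 3 comparisons.

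Of 40 epithelial target genes, 33 reached an average log2 CPM of 0 in CaSki, and 2 were called after miR-124-3p and 3 after miR-23b-3p. ITGB4, a hemidesmosome integrin, rose and KRT13, a keratin of non-cornified squamous epithelium, fell in CaSki after miR-124-3p. ITGB4 had 203 CPM with the mimic, against 127 CPM in the control (log2 0.68 in the authors' deposited table, adjusted p = 0.00711, edgeR), and 0.53 against the left-out library. KRT13 had 0.609 CPM with the mimic, against 1.70 CPM in the control (log2 -1.48 in the authors' deposited table, adjusted p = 0.0463, edgeR), and -0.84 against the left-out library. After miR-23b-3p in CaSki the growth factor receptor gene EGFR and the Notch ligand gene JAG1 rose and KRT17 fell, at 0.78, 0.59 and -0.38 in the authors' deposited table. Against the left-out library these were 0.05, 0.26 and 0.03. No target gene was called in C-33A, where 10 of the 40 reached an average log2 CPM of 0, or after miR-218-5p in CaSki. The median log2 fold change of the list ran from -0.06 to 0.20 over the 6 comparisons, beside -0.04 to 0.01 over all genes.

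Of 9 mesenchymal factors and markers, VIM, which encodes the intermediate filament vimentin, fell after miR-124-3p in both lines. It had 60.4 CPM with the mimic, against 99.5 CPM in the control, in C-33A (log2 -0.72 in the authors' deposited table, adjusted p = 0.0383, edgeR). In CaSki it had 217.6 CPM with the mimic, against 361 CPM in the control (log2 -0.73 in the authors' deposited table, adjusted p = 0.00335, edgeR), and its ratio against the left-out library was -0.92. FN1, the gene of fibronectin, and VIM were called higher in CaSki after miR-23b-3p, at 0.94 and 0.38 in the authors' deposited table, and were at -0.19 and 0.08 against the left-out library.

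Of 18 cofactors and regulators of the members, 17 reached an average log2 CPM of 0 in CaSki after miR-23b-3p. In that comparison 9.09% of all genes at this level were called. The acetyltransferase genes EP300 and CREBBP and the methyltransferase gene KMT2D were called higher there, at 1.30, 0.88 and 0.76 in the authors' deposited table. Against the left-out library these were 0.06, 0.12 and 0.09. EP300 had 54.2 CPM with the mimic, against 21.9 CPM in the 2-library control and an implied 52.0 CPM in the left-out library.

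Noncoding genes or pseudogenes overlap TFAP2A, TP63, GRHL2, SOX2 and ELF3. The sources used here do not give the strand setting of the counting, so reads of a gene and of its antisense partner cannot be told apart. Those that overlap TP63 and GRHL2, among them an antisense gene of GRHL2, are named without levels. TFAP2A-AS2 had 15.5, 16.4 and 15.9 CPM in CaSki with miR-124-3p, with miR-23b-3p and with miR-218-5p, against 13.5 CPM in the 3-library control of the miR-124-3p table. TFAP2A-AS1 had 5.90, 6.69 and 5.74 CPM in that order, against 5.15 CPM in that control. Neither was called. ELF3-AS1 had 5.27, 5.09 and 4.81 CPM in CaSki in that order, against 5.02 CPM in that control, and was not called. SOX2-OT, which holds SOX2 on the same strand, had 181, 171 and 154 CPM in C-33A with the 3 mimics in that order, against 203 CPM in the control of the miR-124-3p table, and was not called.

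The 5 protein coding genes whose 6 log2 fold changes lay nearest to those of TFAP2A, among 9438 genes at an average log2 CPM of 1 or above in all tables, were MT-ND3, DDI2, DDX3X, ADGRE5 and ATF7. Their root mean square differences from TFAP2A were 0.40 to 0.41 over the 6 comparisons. After miR-23b-3p in CaSki they had log2 fold changes of 0.77 to 0.96 in the authors' deposited table, all below the 1.16 of TFAP2A. TFAP2A was chosen for its high value in this contrast, which also enters the differences, so nothing is read from this order. The 3 C-33A values of TFAP2A come from under 0.4 CPM, and they weigh as much in the likeness as the CaSki values, so the choice of these 5 genes is imprecise.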

How the data were processed

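Tools named per the submitters' processing notes are edgeR 3.36.0, featureCounts 2.0.3, STAR 2.7.10b and FastQC 0.73, with the build GRCh38. Each of the 6 deposited tables compares 1 mimic with the control of its line and, per the file headers, holds the average log2 CPM of a gene, its log2 fold change, the p-value, the FDR (adjusted p-value) and an F score. Counts per sample are not analysed here, so these deposited statistics were used in place of a fit to counts. A gene was called at a deposited FDR under 0.05.

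From these values were computed the SE (the log2 fold change divided by the normal quantile of the p-value), the denominator degrees of freedom (from F and p), the group mean CPM and the implied level of the left-out control. The recoveries were tested on simulated data only, so the error of the implied left-out level in the deposited tables was not tested. Of 7913 CaSki genes at an average log2 CPM of 4 or above, 4 had an implied left-out level below 0, which no library can have. An average log2 CPM of 0 was the floor for tests of differences. In C-33A the denominator degrees of freedom reached 183651 in the miR-124-3p fit and 244868 in each of the other fits. These totals amount to 3 or 4 for each listed gene. The C-33A p-values thus rest on a spread pooled over genes and not on that of the single gene. Named genes were the members, in each list and comparison the called genes with the 4 lowest p-values, and the 5 genes nearest to TFAP2A. The result of 1 list gene is not reported here. The members and lists were chosen with earlier results of these data known. Alternatives changed the threshold, the floor, the SE, the control level, the transcript set and a trend with length and GC content. The comparison with the left-out control was chosen after seeing the data. Tools were Python 3.11.15, scipy 1.17.1 and GENCODE 29.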

Additional observations from a re-analysis of the deposited data

How the results depend on the processing

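Of 59 alternatives to counts of calls, 51 stayed within 1.5 times of the reported count. Most of these counts were 0, and a count that stayed at 0 was scored as within range, so the tally says little about stability. In CaSki after miR-124-3p, 1 member, ELF3, was called in place of 0 with adjustment limited to genes at or above an average log2 CPM of 0 (adjusted p = 0.0435, edgeR p-values) or of 1 (0.0377), and with the length and GC trend removed; the share of genes called was then 2.42% and 3.1% under the floors. In CaSki after miR-23b-3p, 2 members, TFAP2A and TP63, were called in place of 1 at an FDR under 0.10 and under the same floors (TP63 adjusted p = 0.022 and 0.0195, edgeR p-values), beside 16.4% and 18.9% of genes. At an FDR under 0.10, 2 genes of the other lists were called in place of 1 in C-33A after miR-124-3p. With any coding transcript, 2 members in place of 1, TFAP2A and EHF, held a 7mer match for miR-218-5p. With the trend removed, 59 of 60 member fold changes moved by under 1 SE. Against the 3-library control 8 of 10 did, and against the left-out control library 16 of 30. Against the mean of the other mimics 35 of 60 did; in CaSki the controls do not fully cancel there, since the miR-23b-3p fit held 2 of 3. Over the left-out control library, 3 called genes of the other lists in CaSki after miR-23b-3p changed sign: FN1 to -0.19, KLF3 to -0.08 and KRT17 to 0.03, where the deposited values were 0.94, 0.45 and -0.38. TFAP2A after miR-23b-3p, the value that chose the set, went from 1.16 to 0.13 there, so nothing is read from its unchanged sign. Several values of members that were not called changed sign. No paired analysis was possible because the tables hold no values per sample, and leaving out each replicate was not run for the same reason. The implied left-out library is 1 library, so the differences against it have no error.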
